A study of Mus musculus with 2 samples.

Results

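The 10 genes described here act in the response of cells to low oxygen and in the supply and breakdown of glucose. They were chosen as a list of names, with mm10 positions, from 21887 protein-coding genes, with earlier results of these data known. Their loops were those with an anchor within 2.5 kb of either end of the gene. This gave 14 of the 15592 loops listed for cortex after middle cerebral artery occlusion (MCAO) and 6 of the 14779 listed for sham cortex. A loop is a pair of DNA segments, its anchors, found joined more often than the authors' caller expected. Its strength is the number of paired-end tags (PETs), read pairs with an end in each anchor.

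Loops were mapped by Hi-C, which ligates and sequences DNA segments that lie close together in the nucleus. In the MCAO group the artery was blocked with a filament for 1 h, and ipsilateral cortex was taken after 6 h of reperfusion. Sham mice had the surgery without the occlusion and the same 6 h of recovery. The labels name 3 cortices and give 1 library per group, and they state no strain, age or sex. No difference below has a replicate check, no test between conditions was made, and library and condition cannot be told apart. In bulk cortex, a shift in cell types and a change of contacts within each cell cannot be told apart either. The lists hold no expression values, so the tissue label was not checked against marker genes. The MCAO library held 40550536 PETs and the sham library 34974213, a ratio of 1.16, and both lists begin at 10 PETs per loop. All intervals are 95% intervals for counting error only.

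When oxygen is plentiful, prolyl hydroxylases such as Egln3 mark the alpha subunits of the hypoxia-inducible factors, Hif1a and Epas1, for destruction. When oxygen falls, the stabilised factors bind short DNA elements at their targets. The targets include the vascular signals Vegfa and Adm, the glucose transporter Slc2a1, the glycolytic enzymes Hk2 and Pfkfb3, the kinase Pdk1, which turns pyruvate away from mitochondria, and Bnip3, which promotes the removal of mitochondria. In brain, Slc2a1 carries glucose across the capillary wall, and the pathway is known to be active after ischaemia.

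The promoters of 5 genes are shown. The transcription start of each lay at an anchor of a listed loop. The same held for a start of Hk2 and of Pfkfb3, whose promoters are not shown. The windows run from 250 bases before to 50 bases after the start, 5′ to 3′ on the gene's strand, from RefSeq on GRCm38.p6, the assembly of mm10. They are chr12:73907617-73907916 (plus strand) for Hif1a, chr7:110627407-110627706 (plus) for Adm, chr17:46032328-46032627 (minus) for Vegfa, chr4:119108495-119108794 (plus) for Slc2a1 and chr2:71872974-71873273 (plus) for Pdk1. Hif1a and Adm had loops in MCAO only, Pdk1 in sham only, and Vegfa and Slc2a1 in both. Capitals mark the core letters bound by hypoxia-inducible factors, ACGTG or GCGTG, on either strand (CACGT and CACGC when read on the other).
Hif1a: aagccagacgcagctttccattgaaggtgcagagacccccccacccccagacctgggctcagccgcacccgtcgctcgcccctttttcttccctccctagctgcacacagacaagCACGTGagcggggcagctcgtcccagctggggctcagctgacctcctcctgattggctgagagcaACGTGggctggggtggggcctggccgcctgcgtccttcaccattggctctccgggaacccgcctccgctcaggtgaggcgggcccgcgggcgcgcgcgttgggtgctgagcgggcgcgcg
Adm: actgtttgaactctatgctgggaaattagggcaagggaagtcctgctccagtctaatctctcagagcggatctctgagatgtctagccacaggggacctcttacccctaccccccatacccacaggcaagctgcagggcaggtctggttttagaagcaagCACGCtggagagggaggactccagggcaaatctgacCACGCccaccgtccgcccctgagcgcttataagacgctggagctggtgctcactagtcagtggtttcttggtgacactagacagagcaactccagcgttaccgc
Vegfa: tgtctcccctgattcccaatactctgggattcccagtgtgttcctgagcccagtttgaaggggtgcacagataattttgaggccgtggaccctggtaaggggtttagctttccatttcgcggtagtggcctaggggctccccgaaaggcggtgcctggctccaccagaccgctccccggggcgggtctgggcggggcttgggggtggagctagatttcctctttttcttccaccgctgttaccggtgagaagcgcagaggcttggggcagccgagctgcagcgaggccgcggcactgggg
Slc2a1: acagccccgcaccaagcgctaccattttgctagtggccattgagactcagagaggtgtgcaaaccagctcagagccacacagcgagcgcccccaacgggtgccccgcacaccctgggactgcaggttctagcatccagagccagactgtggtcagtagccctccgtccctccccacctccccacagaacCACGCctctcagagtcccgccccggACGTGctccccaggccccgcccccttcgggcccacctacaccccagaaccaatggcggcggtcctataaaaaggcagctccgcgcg
Pdk1: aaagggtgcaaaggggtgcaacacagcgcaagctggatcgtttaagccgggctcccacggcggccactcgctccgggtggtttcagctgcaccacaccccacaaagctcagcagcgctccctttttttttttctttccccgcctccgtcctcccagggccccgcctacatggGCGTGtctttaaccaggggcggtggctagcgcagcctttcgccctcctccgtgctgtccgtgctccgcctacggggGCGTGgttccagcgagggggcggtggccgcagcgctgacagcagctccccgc

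In the Hif1a window the sites began at positions -135 and -70 from the start, in Adm at -90 and -54, in Slc2a1 at -61 and -36 and in Pdk1 at -78 and -2. The Vegfa window at the outer start held 0, while that at its inner start, not shown, held 2, beginning at -218 and -211. Of 12 windows for 9 of the genes, 10 held the letters (83.3%), against 49.3% of 21263 windows of protein-coding genes. The G and C content of the 12 windows ran from 40.3% to 71.7%, and base composition was not matched in this comparison. A match is a description of letters and not a binding site. Epas1 is named only.

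More of the 10 genes had a loop in MCAO than in sham. In MCAO 7 of 10 genes had a loop, where 47.9% of all protein-coding genes did. In sham 5 of 10 did, where 43.0% of all genes did. The number of loops was higher in MCAO at 7 genes, against 28.7% of all genes, and lower at Pdk1, against 20.7% of all genes. Bnip3 and Egln3 had none in either list, as did 38.4% of all genes. The median difference, MCAO minus sham, was 1.00 loop per gene over the 10 genes and 0 over all genes.

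**Figure D1:**
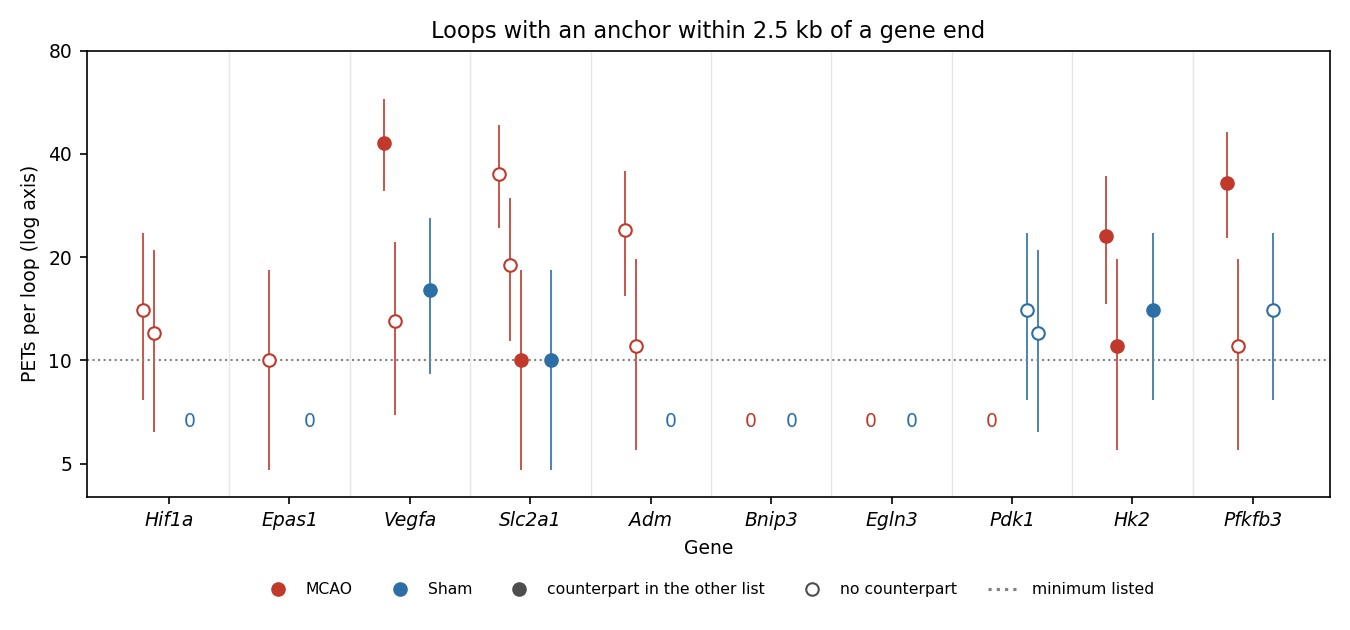
PETs per loop (log axis) for every loop with an anchor within 2.5 kb of an end of the 10 genes, in MCAO (red, left of each gene) and sham (blue, right); bars are exact 95% Poisson intervals, filled points have a counterpart in the other list, open points have none, and 0 marks a list with no loop. The 6 loops of MCAO with at least 15 PETs lie at Vegfa, Slc2a1, Adm, Hk2 and Pfkfb3, and the sham list holds 1 such loop, at Vegfa.

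In sum the genes had 14 loops in MCAO (7.65 to 23.5) and 6 in sham (2.20 to 13.1). The ratio was 2.33, with an interval of 0.842 to 7.41 that holds both 1 and the ratio of 1.21 found over the gene-loop pairs of all genes. The loops carried 269 PETs in MCAO and 80 in sham. PETs per loop ran from 10 to 43 in MCAO, with a median of 13.5, and from 10 to 16 in sham, with a median of 14.0. Over all loops at gene ends the medians were 14.0 and 13.0, so the member loops were of ordinary strength for their lists. Loops with at least 15 PETs numbered 6 in MCAO, where 46.3% of all gene-end loops reach that number, and 1 in sham, where 43.3% do. Median spans were 282 kb in MCAO and 298 kb in sham, against 292 kb and 359 kb for all gene-end loops.

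Several of these counts rest on where the 2.5 kb window ends. With 10 kb at gene ends the 10 genes had 15 loops in MCAO and 9 in sham, more at 5 genes (32.6% of all genes) and fewer at 1 (22.5% of all genes). With 20 kb, a width chosen after seeing the data, they had 17 and 14, a ratio of 1.21 against 1.23 for all genes. At that width 5 genes had more (36.6% of all genes) and 2 fewer (24.2% of all genes). With any part of the gene counted, 5 had more (30.1% of all genes) and 2 fewer (21.8% of all genes). At transcription starts alone, listed for 9 of the 10 genes, 3 had more and 2 fewer, where 24.3% and 17.9% of the 17492 genes with a listed start did. The sham list thus held anchors near several of the genes that the 2.5 kb rule does not reach. The nearest sham anchor outside the window lay 2.53 kb from the end of Hk2, 2.73 kb from an end of Epas1, 5.23 kb from an end of Pfkfb3 and 11.9 kb from an end of Slc2a1. At Hif1a it lay 59.2 kb away and at Adm 23.3 kb, so the sham list held no anchor within 20 kb of either gene.

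**Figure D2:**
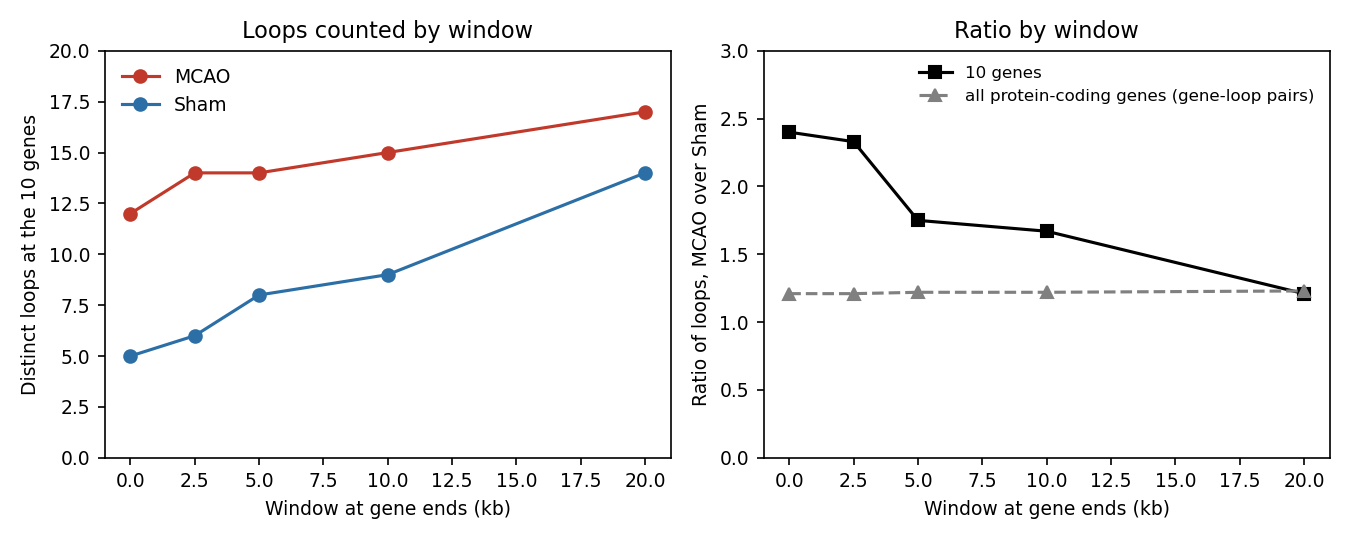
Left, distinct loops at the 10 genes in MCAO (red) and sham (blue) against the window at gene ends in kb; right, the ratio of MCAO over sham for the 10 genes (black squares) and for the gene-loop pairs of all protein-coding genes (grey triangles). The ratio of the 10 genes is 2.40 with no window and 1.21 at 20 kb, while that of all genes stays between 1.21 and 1.23.

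Depth also bears on the counts. When the MCAO minimum was raised to 12 PETs, in proportion to the deeper library, the genes had 9 loops in MCAO and 6 in sham, with more at 4 genes (18.5% of all genes) and fewer at 1 (26.6% of all genes). With at least 15 PETs in both lists, 4 genes had more loops in MCAO (18.8% of all genes) and 0 had fewer (12.6% of all genes). The 4 genes at this stricter minimum were Slc2a1, Adm, Hk2 and Pfkfb3. At Hk2 this rests on the window. Its MCAO loop had 23 PETs, and a sham loop of 49 PETs to the same far locus had its anchor 2.53 kb from the gene. At Pfkfb3 a contact inside the gene, of 37 PETs in MCAO and 38 in sham, lay outside the rule. Among loops up to the median p-value of their list, 6 genes had more (19.3% of all genes) and 0 fewer (15.9% of all genes).

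Among the regulators, Hif1a, the oxygen-labile subunit found in most cells, had 2 loops in MCAO and 0 in sham. Its start was joined to 73707349 to 73715640 on chromosome 12, inside Prkch, a protein kinase C gene, by 12 PETs over 200 kb. Its far end was joined to 74285193 to 74301323, at the ends of Dbpht2, by 14 PETs over 344 kb, with Snapc1 and Syt16 lying between. Both loops were thus near the minimum of 10 PETs, where absence from a list does not show absence of the contact. The sham list had no anchor over either Hif1a anchor, while 8 of its loops overlapped the locus at Dbpht2 and 1 the locus inside Prkch. Within 500 kb of Hif1a there were 16 loops in MCAO and 9 in sham.

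Epas1, the subunit prominent in endothelial cells, had 1 loop in MCAO and 0 in sham. It carried 10 PETs, the lowest number listed, and joined the lower end of the gene on chromosome 17 to 87069736 to 87087625, 310 kb away and outside any protein-coding gene. The nearest gene was Socs5, a regulator of cytokine signalling, at 19.7 kb, and 6 genes lay between the anchors. In sham 1 loop of 10 PETs lay just outside the rule, with an anchor 2.73 kb from the lower end. Another, of 14 PETs, had an anchor deep inside the gene, 20.7 kb from the nearer end. Both ran to the opposite side of Epas1 from the MCAO loop. Under each of the 9 other settings of window, gene part and list, the difference at Epas1 was 0. At transcription starts this is by construction, since none is listed for the gene.

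Egln3, the hydroxylase that rises under hypoxia and limits the factors, had 0 loops in both lists. The nearest MCAO anchor lay 8.16 kb from the gene, in a loop of 10 PETs, and the nearest sham anchor lay 66.5 kb away. The gene was enclosed by 4 loops in MCAO and 2 in sham, and 8 loops lay within 500 kb in either list.

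Of the vascular signals, Vegfa, the main growth factor for blood vessels, had the strongest loop of the 10 genes under the 2.5 kb rule in both lists. In MCAO 43 PETs joined its start to 45726480 to 45742712 on chromosome 17, over 296 kb. In sham 16 PETs joined it to 45726525 to 45743934, over 298 kb. The loops are counterparts, with anchor midpoints 2.21 kb apart at the gene and 0.634 kb apart at the far locus. A counterpart is the nearest loop of the other list whose midpoints both lie within 1 anchor width, the wider anchor counting on each side. The far locus holds 1600014C23Rik and long non-coding RNA genes, among them F630040K05Rik, and no protein-coding gene lies wholly between it and Vegfa.

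Per 1000000 PETs of the library the Vegfa loop had 1.06 PETs in MCAO and 0.457 in sham, a ratio of 2.32 (1.28 to 4.41). In MCAO 96.9% of the listed loops had fewer PETs than it, and in sham 68.5%. Reads per kb of anchor, scaled for depth, were higher in MCAO as well, by 1.16 times at Vegfa and 1.33 times at the far locus. The part of read coverage in the difference was not tested. A further MCAO loop of 13 PETs joined the Vegfa start to 45756175 to 45772261 and had no counterpart, though the sham loop shares its anchor at the gene.

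Adm, which codes for the vasodilator adrenomedullin, had 2 loops in MCAO and 0 in sham. The stronger, of 24 PETs, joined 110620536 to 110645787 on chromosome 7, which covers the whole gene, to 110279102 to 110293134 at an end of Swap70. It spanned 347 kb and passed over Sbf2. The weaker, of 11 PETs, joined the gene to 110548215 to 110555349 inside Sbf2, over 75.9 kb. No sham anchor overlapped any of the anchors of these loops. Both lists had 8 loops within 500 kb of Adm, and 0 MCAO loops and 2 sham loops enclosed the gene.

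Of the glucose genes, Slc2a1 had the most loops, 3 in MCAO and 1 in sham. In each list 1 loop of 10 PETs joined the gene's start to an upstream locus, 119002504 to 119005827 on chromosome 4 in MCAO and 119001352 to 119010639 in sham, and the loops are counterparts. Their ratio per 1000000 PETs was 0.862 (0.322 to 2.31), an interval that holds 1. The upstream locus holds no gene, and Lao1 lies 33.6 kb from it in MCAO and 32.4 kb in sham. The start of Slc2a1 itself lay inside the MCAO anchor and just outside the sham anchor, within 2.5 kb.

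The other MCAO loops of Slc2a1 reached its far end. One, of 19 PETs over 136 kb, ran to 118994379 to 119015694, which covers the same upstream locus. It had no counterpart by the rule, its midpoints lying up to 24.2 kb from those of the sham loop. The other, of 35 PETs over 528 kb, ran from an anchor of 75.1 kb, which also holds ends of Zfp691, Ermap and Svbp, to 118611027 to 118659398 at Cfap57 and Ebna1bp2. It passed over 14 genes, Lao1 and otherwise olfactory receptor (Olfr) genes, and no sham loop had an anchor at the far locus. With an anchor that holds 4 genes, this loop cannot be given to Slc2a1 alone. In sham 2 further loops, of 11 and 17 PETs, had anchors 11.9 kb and 18.1 kb from the gene. With 20 kb at gene ends Slc2a1 thus had 3 loops in each list, and at its transcription start alone 1 in each.

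Hk2, which codes for a hexokinase, an enzyme of the first step of glycolysis, had 2 loops in MCAO and 1 in sham. The start of the gene was joined to 83075502 to 83101735 on chromosome 6 by 11 PETs in MCAO, and to 83058995 to 83090950 by 14 PETs in sham. The loops are counterparts. That locus holds ends of Pcgf1, a Polycomb gene, and Lbx2, a homeobox gene, in both lists. The ratio per 1000000 PETs was 0.678 (0.278 to 1.61), and the interval holds 1.

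The other MCAO loop of Hk2 joined its far end to 81948613 to 81987242, at Gcfc2 and Mrpl19, by 23 PETs over 740 kb. It had a sham counterpart that the 2.5 kb rule leaves out, of 49 PETs, with an anchor of 82617455 to 82722497 that stops 2.53 kb short of the gene. Per 1000000 PETs the loop had 0.567 PETs in MCAO and 1.40 in sham, a ratio of 0.405 (0.235 to 0.677). The sham anchors were wider, at a mean of 86.3 kb against 39.6 kb in MCAO, and the part of anchor width was not tested. A further MCAO loop, of 10 PETs, began inside Hk2 and had the same sham counterpart. By the 2.5 kb rule Hk2 had 34 PETs in MCAO and 14 in sham. With 5 kb at gene ends, which takes in the sham loop of 49 PETs, it had 2 loops in each list.

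Pfkfb3, which makes the activator of phosphofructokinase, had 2 loops in MCAO and 1 in sham, and the loops at the gene ends were not counterparts of each other. In MCAO 33 PETs joined the start to 11322358 to 11347056 on chromosome 2, over 205 kb, a locus with the non-coding gene 8030442B05Rik and with Prkcq as the nearest protein-coding gene at 21.1 kb. In sham 14 PETs joined the start to 11114534 to 11159500, beyond Prkcq, over 400 kb. Between these loops, which meet the 2.5 kb rule, the far locus in MCAO was nearer to the gene than that in sham. Outside the rule, sham loops also joined Pfkfb3 to the nearer locus, as given next.

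The MCAO loop of 33 PETs had a sham counterpart that begins inside the gene, 5.23 kb from the start, with 14 PETs and a span of 206 kb. The ratio per 1000000 PETs was 2.03 (1.06 to 4.11), while reads per kb of anchor differed by 0.962 and 0.966 times. The MCAO anchors of this pair were wider, at a mean of 26.6 kb against 16.1 kb in sham. The part of anchor width was not tested. The same far locus was also joined to the middle of Pfkfb3, with 37 PETs in MCAO and 38 in sham. That contact, the strongest at the gene in each list, lies outside the gene-end rule in both. The weaker MCAO loop at the far end of Pfkfb3 had 11 PETs and no sham anchor at either side. With any part of the gene counted, Pfkfb3 had 3 loops in MCAO and 4 in sham, so the direction turned.

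Pdk1 was the only one of the 10 genes with more loops in sham, 0 in MCAO and 2 in sham. The sham loops joined its start on chromosome 2 to 72132602 to 72166514 by 14 PETs, over 273 kb, and to 72197981 to 72232781 by 12 PETs, over 331 kb. Both far loci lie inside Rapgef4, which codes for an exchange factor activated by cyclic AMP. The gene anchor of the first also holds an end of Itga6, an integrin gene. The nearest MCAO anchor lay 48.2 kb from Pdk1, and 10 MCAO loops and 11 sham loops lay within 500 kb. At least 15 PETs per loop left 0 loops in both lists.

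Bnip3 had 0 loops in both lists, with the nearest anchor 47.3 kb away in MCAO and 28.3 kb in sham. Within 500 kb there were 14 loops in MCAO and 11 in sham, and 0 in either list enclosed the gene. Over all 10 genes, the number of loops within 500 kb was higher in MCAO at 7, where it was higher at 60.4% of all genes. It was equal at 2 (13.0% of all genes) and lower at 1 (26.6% of all genes), so these counts lay near those of all genes.

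**Figure D3:**
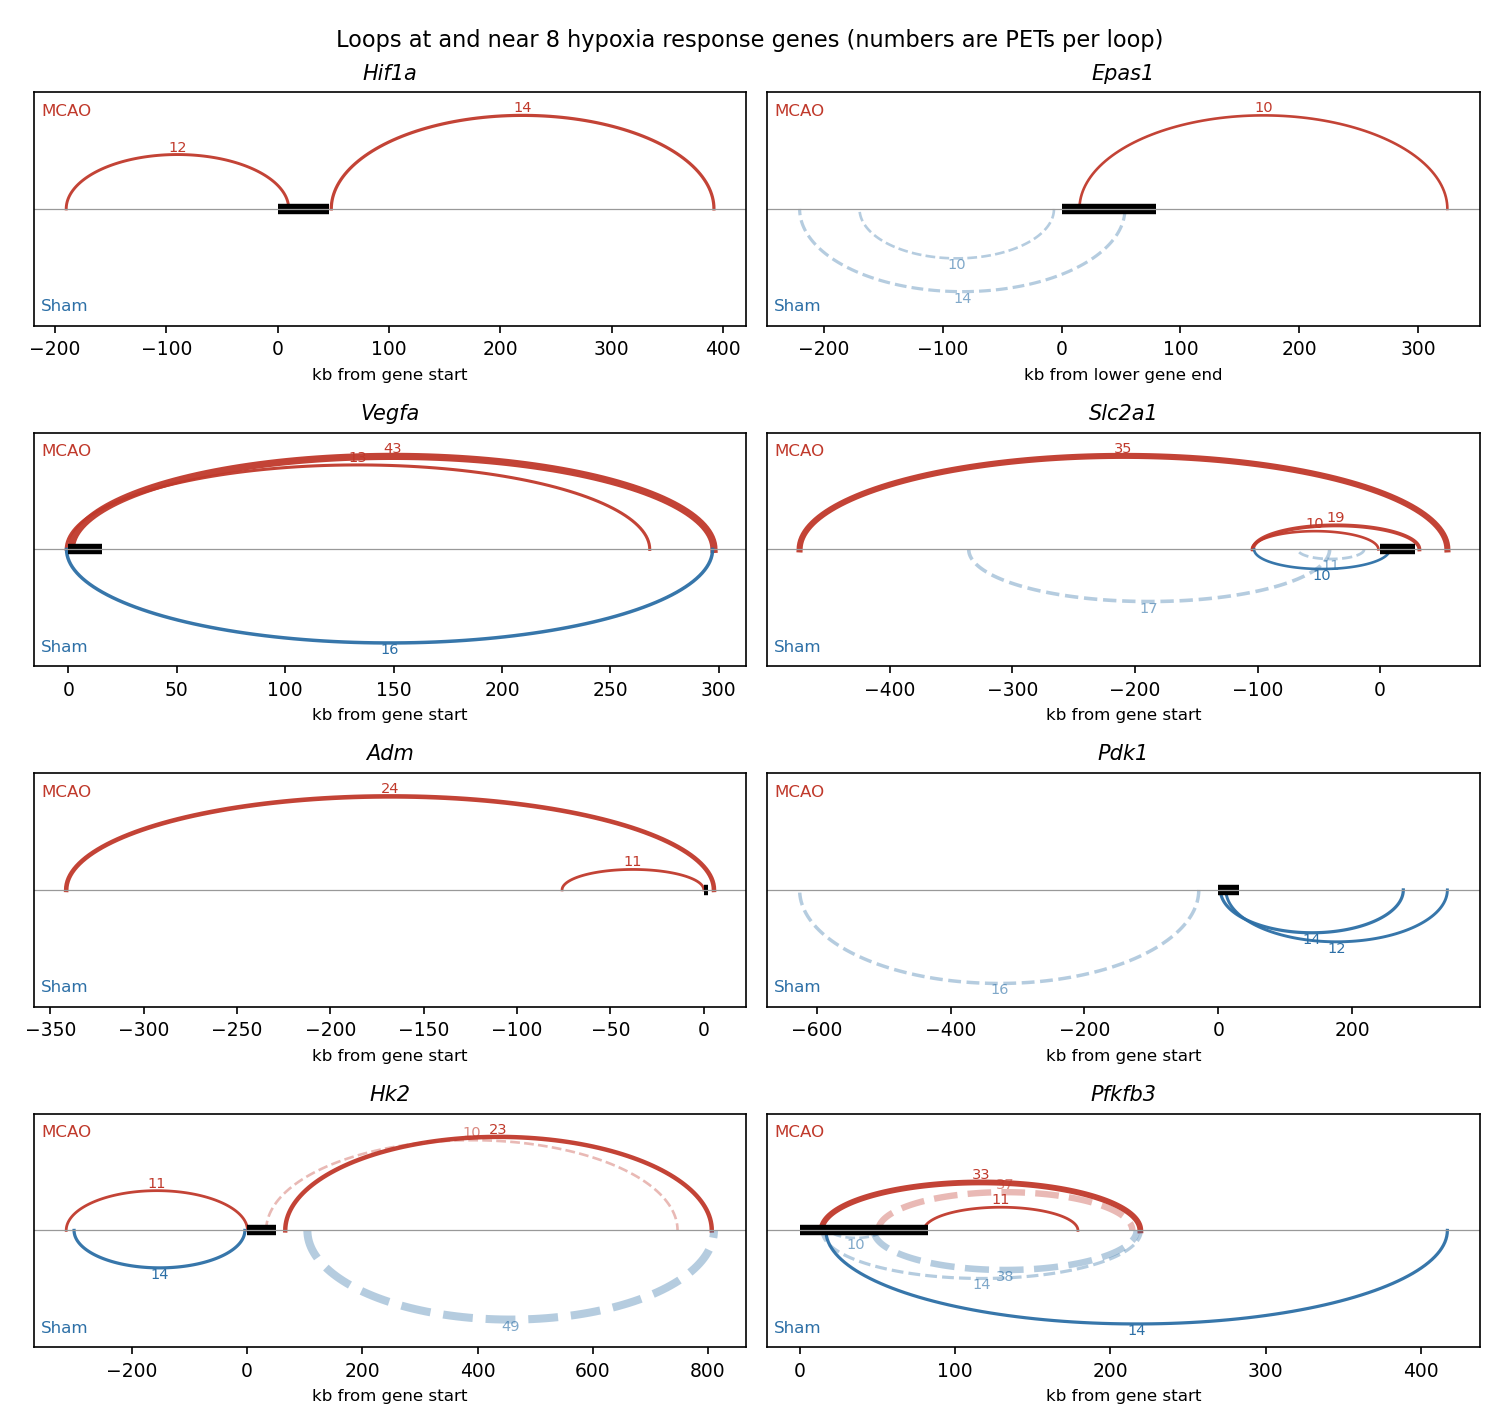
Loops of 8 genes as arcs between anchor midpoints, MCAO above and sham below the line, against distance in kb from the gene start along its strand (for Epas1 from its lower end); black bars are the genes, line width and numbers give PETs, solid arcs meet the 2.5 kb rule and faint dashed arcs have an anchor in the gene or within 20 kb of an end. The strongest contacts of Hk2 in sham (49 PETs) and of Pfkfb3 in MCAO (37 PETs) and sham (38 PETs) are dashed. At Hif1a and Adm the sham side is empty.

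Far loci fell into the same kinds in both lists. In MCAO 6 of 14 lay at an end of a protein-coding gene, 2 inside a gene only and 6 outside protein-coding genes. In sham each kind had 2 of 6. Over all gene-end loops the share with gene ends at both anchors was 34.4% in MCAO and 35.0% in sham. That share counts each loop once. A loop with gene ends at both anchors can be reached from either side, so the member counts are not on the same basis. Counterparts were found for 5 of 14 MCAO loops, 35.7% (12.8 to 64.9), where 28.2% of all MCAO gene-end loops have one. They were found for 3 of 6 sham loops, with an interval of 11.8% to 88.2%, where 34.3% of all sham gene-end loops do. Of the 9 MCAO loops without one, 4 had no sham anchor at either side, namely both at Adm, the one at Epas1 and the weaker one at Pfkfb3. Of all 6864 MCAO gene-end loops without a counterpart, 20.6% had none at either side.

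The wider pathway, a list of 54 further genes of oxygen sensing, glycolysis, lactate transport and hypoxia targets, did not lean the same way. It had 54 distinct loops in MCAO and 64 in sham. The number was higher in MCAO at 17 genes (31.5%) and lower at 20 (37.0%), against the 28.7% and 20.7% of all genes given above, and 9 genes had no loop in either list. The median difference was 0. With at least 15 PETs there were 28 loops in MCAO and 31 in sham.

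The largest differences in its members ran both ways. The glycolytic genes Tpi1 had 3 loops in MCAO and 0 in sham, Eno1 2 and 0, and Eno2 3 and 1. Tpi1 and Eno2 are neighbours on chromosome 6 and shared 2 of their 4 distinct MCAO loops. Gapdh, another glycolytic gene, and Ep300, a coactivator of the factors, had 1 loop in MCAO and 0 in sham. Several genes not named had an equal difference. Glycolytic genes ran both ways: Pgk1, Gpi1 and Pkm also had 1 and 0, while Ldha, Aldoc, Hk1 and Pfkp had 0 and 1. The histone demethylase gene Kdm3a had 1 loop in MCAO and 5 in sham, with 23 and 118 PETs. The transferrin receptor gene Tfrc had 1 and 4, and Calcrl, the receptor for adrenomedullin, had 2 and 5. P4ha1, a collagen hydroxylase gene, had 0 and 2, and Cited2, which competes with the factors for their coactivator, had 6 and 8. Adm thus had more loops in MCAO and Calcrl fewer. Ramp2 and Ramp3, whose proteins pair with that of Calcrl, differed in direction. Ramp2 had 1 loop in MCAO and 0 in sham, and Ramp3 had 0 and 1.

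**Figure D4:**
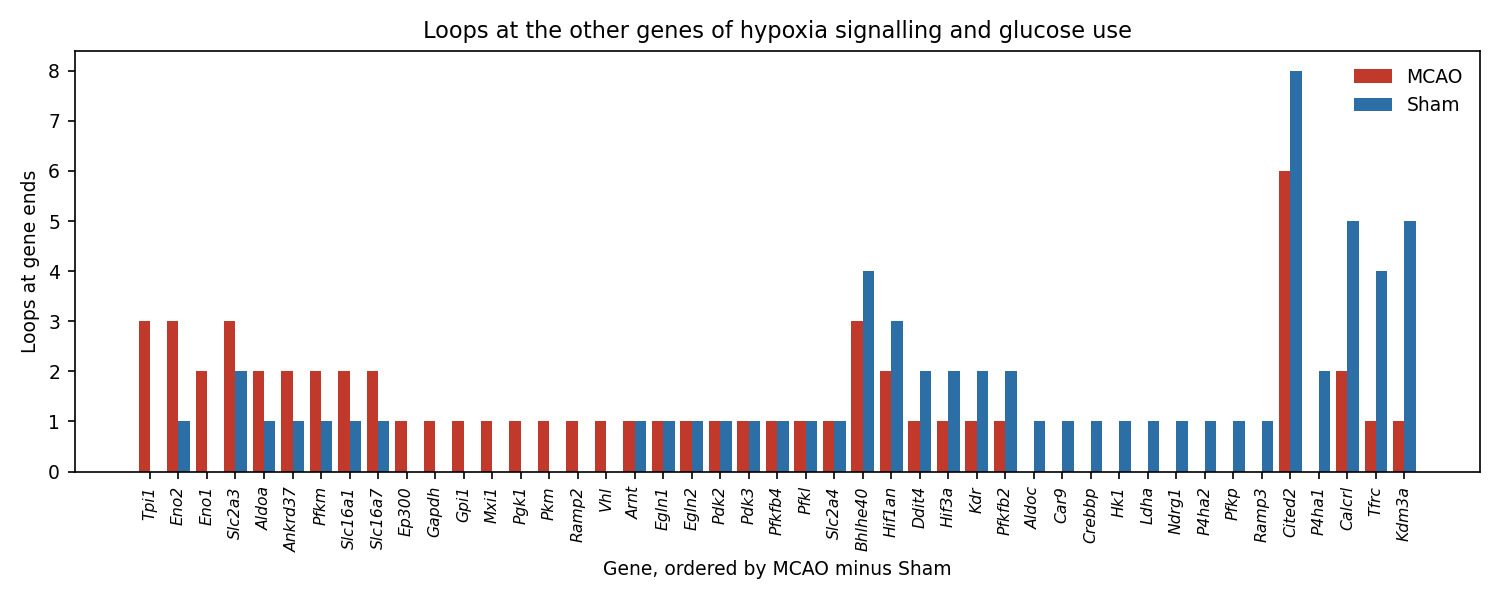
Loops at gene ends (bars) in MCAO (red, left) and sham (blue, right) for the genes of the wider list with a loop in either library, ordered by MCAO minus sham. Tpi1, with 3 loops in MCAO and 0 in sham, stands at the left end, and Kdm3a, with 1 and 5, at the right.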

How the data were processed

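Hi-C libraries of cortex from the MCAO and sham groups, 1 each, were compared. HiC-Pro and Bowtie2 were used with mm10, per the submitters' processing notes; no loop caller is named there or in the labels. The authors deposited raw counts, of PETs for each loop and of reads for each anchor. The deposited density signal was checked to be PETs divided by anchor length in kb and by the library's PETs in units of 1000000, and library totals were taken from it. The enrichment ratio and the p-values are the authors' deposited values; the p-values were used only to take the stronger part of each list (loops up to its median hypergeometric p-value), and the FDR reached 0.05 at most.

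Genes came from RefSeq (GRCm38.p6), without mitochondrial genes. Python 3.11.15, pandas 2.3.3 and scipy 1.17.1 were used, with exact Poisson and Clopper-Pearson intervals, which cover counting error only since PETs need not be separate molecules. Loop assignment and counterpart matching were tested on simulated data. No test between conditions was possible with 1 library per group.

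The 10 genes and the wider list were chosen with earlier results of these data known. All 10 are named with every loop. Far loci are named by genes with an end within 2.5 kb, then by overlapping or nearest genes. Of the wider list, the 5 largest differences in each direction are named, with ties ordered by the lower count opposite and by symbol. Alternatives changed the window, the part of the gene, the PET minimum, the list and the counterpart rule. Those of 5 kb and 20 kb and of unscaled PETs were added after seeing the data.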

Additional observations from a re-analysis of the deposited data

How the results depend on the processing

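As reported, the 10 genes had 14 loops in MCAO and 6 in sham, more in MCAO at 7 genes and fewer at 1, a mean difference of 0.8 loops per gene, and 8 loops with a counterpart. Under each of the 9 other settings of window, gene part and list the total stayed higher in MCAO, with a ratio from 1.12 (9 against 8 at transcription starts) to 10.0 (10 against 1 among loops up to the median p-value of their list). The shares of all genes for the counts of genes below were given with the comparisons. With 20 kb at gene ends sham had 14 loops, 2 genes had fewer in MCAO, 13 loops had a counterpart and the mean difference was 0.3. With any part of the gene sham had 10 loops and 2 genes had fewer in MCAO. At transcription starts alone, without Epas1, MCAO had 9 loops, 3 genes had more and 2 fewer, and the mean difference was 0.1. In these 3 settings the difference at Pfkfb3 reversed to -1, since sham anchors inside that gene came within reach. With at least 15 PETs the lists had 6 loops in MCAO and 1 in sham, 4 genes had more and 0 fewer in MCAO, 4 loops had a counterpart, the mean difference was 0.5 and 18.8% of all genes had more loops in MCAO. With the MCAO minimum at 12 PETs MCAO had 9 loops, 4 genes had more, 4 loops had a counterpart, the mean difference was 0.3 and the share of all genes was 18.5%. Up to the median p-value sham had 1 loop, 0 genes had fewer in MCAO and 4 loops had a counterpart. Fewer loops enter under the stricter lists by construction; other causes were not tested. The other counterpart rules and unscaled PETs moved no result by over 1.5 times and turned none. No paired analysis was possible because each group has 1 library. Most member loops lie within a few PETs of the minimum of 10, which limits what a missing loop shows.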
